A study of Mus musculus with 15 samples.

Results

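The genes described here encode the proteasome, the protease that degrades ubiquitin-tagged proteins, in brains of wild-type mice and of Tbx1 heterozygotes given saline or vitamin B12. They were taken by name: every gene whose symbol is Psm followed by a letter from a to g and a number, pseudogenes left out. The rule found 50 of the 30386 genes in the count table. It took 49 genes of the proteasome and its partners and, by its name alone, Psmc3ip, which encodes a protein of meiotic recombination. Gene expression was read by QuantSeq, which sequences the 3′ ends of polyadenylated RNA, in 15 brain libraries. The 5 WT_PBS libraries came from wild-type mice given phosphate-buffered saline (PBS). The 5 Het_PBS libraries came from Tbx1+/- mice, which carry 1 mutant copy of this developmental transcription factor gene, given PBS. The 5 Het_B12 libraries came from Tbx1+/- mice given vitamin B12 in PBS at 20 mg/kg. All mice were 4 weeks old at the first injection and had 2 intraperitoneal injections per week over 4 weeks. The sources used here do not describe the mutant allele. Vitamin-treated wild types are not part of the data analysed here. The labels do not state that every library is a different mouse, so p-values measure only the spread between these libraries.

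The proteasome is built from a barrel, the 20S core, and caps that feed it, of which the 19S regulatory particle is the main one. The outer rings of the barrel consist of alpha subunits, which form the gate, and the inner rings of beta subunits, some of which cut proteins. The 19S base holds a ring of ATPases that unfold substrates, and its lid removes the ubiquitin tag. Other caps and assembly chaperones adjust or build the particle, and immune subunits replace the cutting ones in cells exposed to interferon. Neurons depend on the proteasome for the turnover of synaptic proteins.

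The libraries held 1683258 to 2746122 counts each, so that 3 counts, taken as the detection floor, equalled 1.09 to 1.78 CPM (counts scaled to library size with TMM factors). Tbx1 itself had 3 reads in WT_PBS, 3 in Het_PBS and 1 in Het_B12, which is at or under the floor and cannot check the genotype. The 8 neuron markers summed to 5653 to 6623 CPM in WT_PBS, 5403 to 6128 in Het_PBS and 5512 to 6069 in Het_B12, and 1 of them was higher in Het_B12 than in Het_PBS. Some markers of other cell types also differed between these 2 groups. The 8 astrocyte markers summed to 3080 to 4565, 3663 to 4619 and 2323 to 3031 CPM in the same order, and 6 of them were lower in Het_B12 than in Het_PBS. The 10 microglia markers summed to 451 to 749.6, 578 to 786 and 376 to 455 CPM, with 5 lower. The 6 oligodendrocyte markers summed to 3623 to 7970, 4572 to 7971 and 4371 to 6165 CPM, with 1 lower. The 7 endothelial markers summed to 43.0 to 68.3, 50.5 to 69.7 and 128 to 174 CPM, with 4 of the 5 tested higher. Of the 5 leukocyte markers Cd79a was at 0 in every library, and the list summed to 11.1 to 36.4, 21.5 to 89.1 and 5.16 to 12.2 CPM, with all 3 tested lower. The red cell list of 4 globin genes summed to 486 to 1281, 774 to 4965 and 499 to 977 CPM, with all 4 lower against Het_PBS and 0 called against WT_PBS. Reads of Gm42418, which overlaps a ribosomal RNA repeat, made up 10.7% to 14.9% of the counts in WT_PBS, 6.47% to 10.3% in Het_PBS and 3.31% to 6.28% in Het_B12. The part of these shifts in the results on the proteasome was not tested, and in bulk brain fewer cells of a type and less RNA per cell cannot be told apart.

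Of the 50 genes, 44 had enough reads to be tested. The other 6 were near or under the floor: Psma8, the alpha subunit of the testis (7 reads over all libraries), Psmb11, the cutting subunit of the thymus (3), the immune subunits Psmb9 (24) and Psmb8 (114), the activator copy Psme2b (19) and Psmc3ip (70). The tested genes had a median level of 74.6 CPM. The 10 highest held 55.2% of the summed CPM of all 50. Per kilobase of the longest annotated transcript, the highest levels were those of the ATPase genes Psmc1 (292 CPM per kilobase) and Psmc5 (227) and of the alpha gene Psma7 (193). Psmg1, a chaperone of alpha ring assembly, had the lowest level of the tested genes on that scale (4.87). Since QuantSeq reads transcript ends, the level per kilobase understates long transcripts, and 7 of the 10 genes highest in CPM were also among the 10 highest per kilobase. Levels below are in CPM and are compared within a gene.

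The genotypes were compared first, under PBS. No proteasome gene passed the test in Het_PBS against WT_PBS, and neither did any of the 11718 genes tested (0%). In edgeR 0 of the 44 members had an unadjusted p under 0.05, against 879 of all genes, and DESeq2 and limma-voom called 0 members too. The members' log2 fold changes ran from -0.24 to 0.46 with a median of 0.03, beside -0.01 over all genes, and 25 lay above 0. The smallest adjusted p was that of Psmd4, a ubiquitin receptor of the 19S base, whose log2 fold change was -0.24 ± 0.12 SE (adjusted p = 0.666). Psmb5, the chymotrypsin-like subunit, stood at 0.43 ± 0.23 (adjusted p = 0.668). Psmc1 (-0.21 ± 0.12), Psma2 (0.21 ± 0.13), Psma5 (0.46 ± 0.30) and Psmd5 (0.35 ± 0.23) came next, with adjusted p from 0.708 to 0.761. Psmd2, the proteasome gene nearest to Tbx1 at 2.06 Mb on chromosome 16, had 183 ± 17.8 CPM in WT_PBS and 204 ± 31.1 CPM in Het_PBS (SD, n = 5), a log2 difference of 0.16 ± 0.12 (adjusted p = 0.794). Its mean was higher in the heterozygotes, by less than the test could separate from 0.

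Vitamin B12 was then compared with PBS in heterozygotes, and here the RNA of part of the proteasome genes was lower. The data analysed here hold no measure of proteasome protein, assembly or activity. In Het_B12 against Het_PBS 9 of the 44 members fell, none rose and 35 did not pass. Over all genes tested 3.79% were called lower and 3.47% higher. The 9 were 4 of the 7 alpha ring genes tested, 1 of 7 beta ring genes, 2 of 6 ATPase genes and 2 of 8 lid genes. No gene of the 19S scaffold and ubiquitin receptors, the chaperones, the other caps or the immune subunits passed. The fallers were also among the better-read members. Their median level was 137 CPM and their lowest 73.3 CPM, beside a median of 55.2 CPM among the 35. The part of read depth in which members and gene groups passed was not tested. The median log2 fold change of the 44 was -0.18, beside 0.01 over all genes, and 33 of the 44 (75%) lay below 0, beside 48.6% of all genes. With an offset for transcript length in the fit, the members' median was -0.10, beside -0.01 over all genes. Groups did not overlap, with every Het_B12 library below every Het_PBS library, for 6 members and for 4.07% of all genes. The plot of fold changes by gene group shows this comparison beside that of the genotypes.

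**Figure D1:**
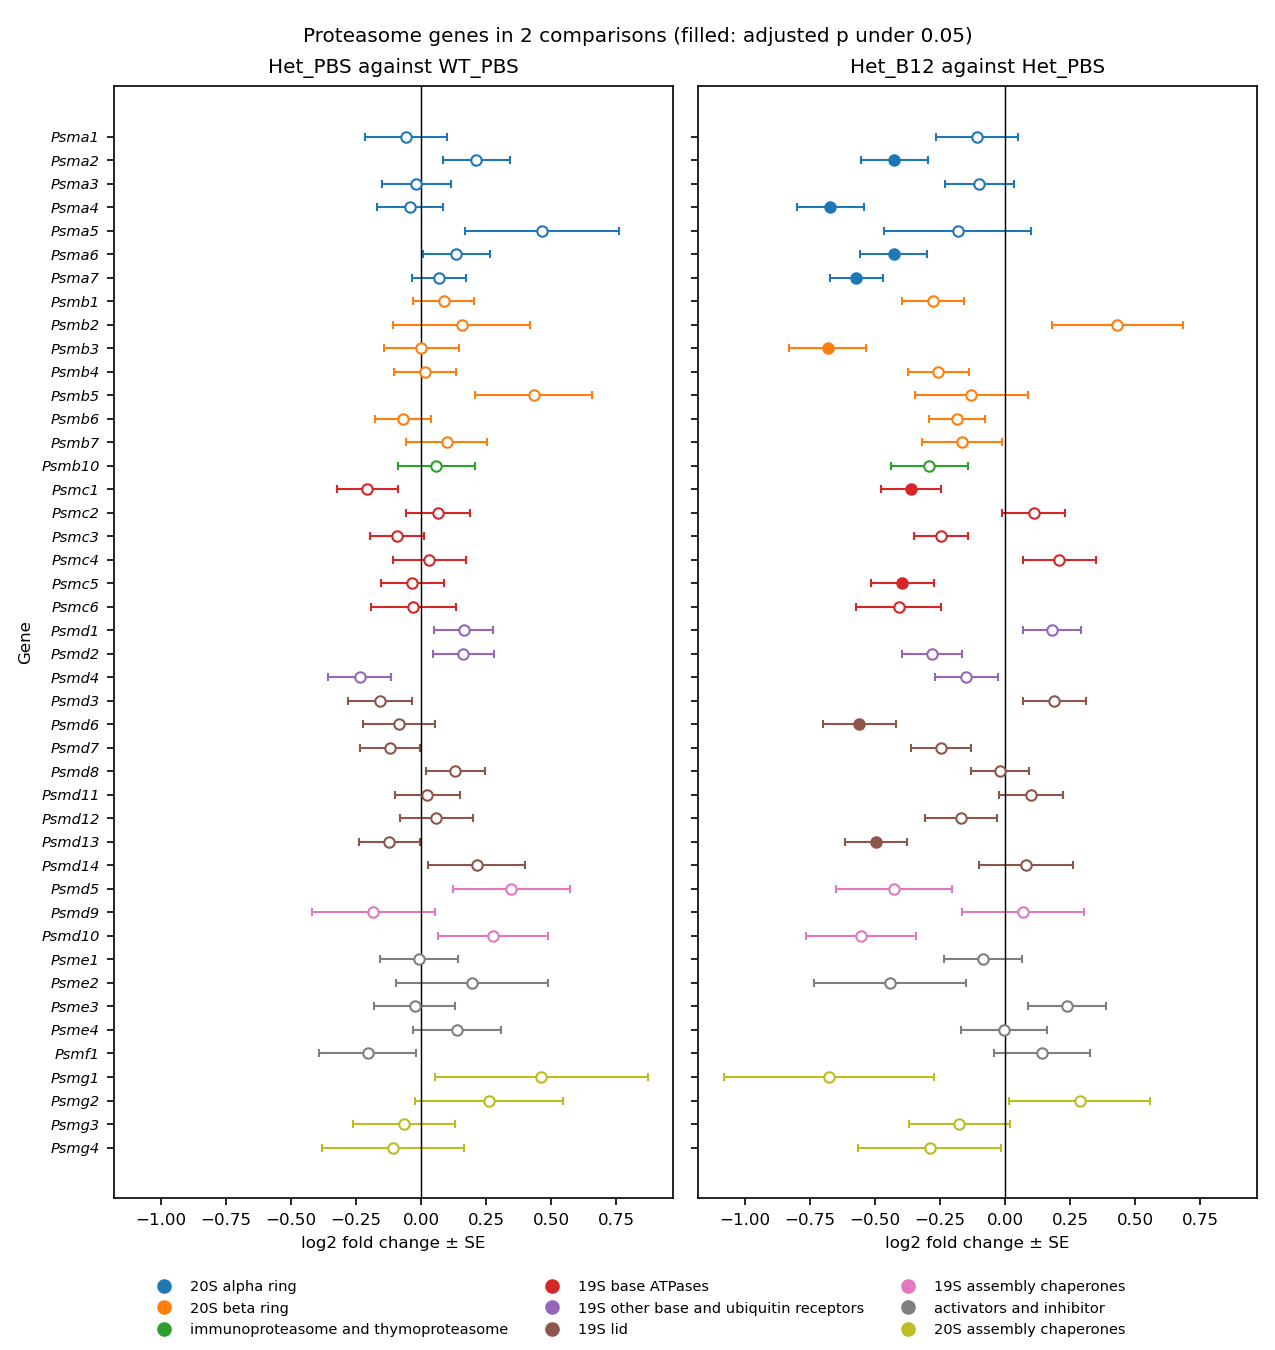
Log2 fold changes (x axis, ± SE) of the 44 tested proteasome genes (y axis, coloured by gene group) for Het_PBS against WT_PBS (left) and Het_B12 against Het_PBS (right); filled points passed at an adjusted p under 0.05. No point is filled on the left, and on the right 9 are filled, all below 0, among them 4 of the 7 alpha ring genes.

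Since several members fell, promoters were read for elements that are known at proteasome genes or at promoters in general. RefSeq (GRCm38.p6) gave a promoter for 42 members, and the 250 bases before the start were searched on both strands for TGACNNNGC, the core of the antioxidant response element to which the factors Nfe2l1 and Nfe2l2 bind, and for CCAAT, the box bound by NF-Y. The first was found in 5 of the 42 (11.9%), beside 10.2% of all 32851 promoters, and the second in 15 of the 42 (35.7%), beside 33.8% of all. No member's promoter held both, beside 3.2% of all, a share too small to read much from 42 promoters. The 32851 promoters belong to 27025 genes, while each member has 1 promoter. TGACNNNGC was in Psmb5, Psmb6, Psmc6, Psmd9 and Psmd12, none of which passed, and in 0 of the 9 fallers. CCAAT was in 5 of the 9 fallers, Psma2, Psma6, Psma7, Psmb3 and Psmc1. It was also in 7 of the 28 members that did not pass and 3 of the 5 not tested. For both elements these sets are too small to read a difference from, and none was tested. A match is a description of letters, not a site. The promoter taken for Psmd9 lies 58777 bases from the start of its annotated gene. Those taken for Psmd5, Psmb11 and Psmf1 lie 4006, 3877 and 2876 bases away, and the others at most 474. The promoters of Psma7 (chr2:180042465-180042714, minus strand) and Psmb3 (chr11:97703184-97703433, plus strand) are shown with CCAAT in capitals, because both genes fell in every fit that left out 1 library. The promoter of Psma4 (chr9:54950609-54950858, plus strand), which did so too, held neither. Psmd6 and Psmd13 also fell in every such fit, and their promoters, not shown, held neither, so CCAAT was in 2 of these 5. Those of the cutting subunits Psmb5 (chr14:54617996-54618245, minus strand) and Psmb6 (chr11:70525107-70525356, plus strand), which did not pass, carry TGACNNNGC in capitals.
Psma7: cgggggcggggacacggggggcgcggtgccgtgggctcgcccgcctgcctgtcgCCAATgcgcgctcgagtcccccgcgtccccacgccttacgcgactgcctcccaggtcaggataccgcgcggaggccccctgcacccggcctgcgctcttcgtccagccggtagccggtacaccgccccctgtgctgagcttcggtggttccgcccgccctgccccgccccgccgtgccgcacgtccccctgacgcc
Psmb3: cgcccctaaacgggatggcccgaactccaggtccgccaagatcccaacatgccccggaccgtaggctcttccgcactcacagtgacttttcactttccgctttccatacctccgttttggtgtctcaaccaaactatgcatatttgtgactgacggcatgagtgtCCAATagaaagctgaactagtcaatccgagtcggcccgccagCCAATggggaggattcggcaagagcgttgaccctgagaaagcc
Psma4: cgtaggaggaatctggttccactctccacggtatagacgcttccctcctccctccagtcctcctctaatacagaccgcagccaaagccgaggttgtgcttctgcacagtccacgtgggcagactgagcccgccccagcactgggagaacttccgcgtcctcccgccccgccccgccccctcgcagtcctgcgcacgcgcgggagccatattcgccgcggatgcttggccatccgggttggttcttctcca
Psmb5: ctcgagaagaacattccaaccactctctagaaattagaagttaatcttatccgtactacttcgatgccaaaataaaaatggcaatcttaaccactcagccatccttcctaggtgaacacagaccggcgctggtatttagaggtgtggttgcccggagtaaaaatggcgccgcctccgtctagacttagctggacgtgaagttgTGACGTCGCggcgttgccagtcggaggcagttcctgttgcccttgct
Psmb6: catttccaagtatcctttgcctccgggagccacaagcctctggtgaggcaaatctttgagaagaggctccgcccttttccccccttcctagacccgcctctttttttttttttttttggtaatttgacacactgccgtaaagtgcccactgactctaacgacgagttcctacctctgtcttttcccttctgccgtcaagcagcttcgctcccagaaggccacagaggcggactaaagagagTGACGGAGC
Each is written 5′ to 3′ on the strand of its gene and ends at the base before the RefSeq start. Psmb3 has 2 CCAAT boxes, whose first letters lie 85 and 43 bases before the start. In Psma7 the box lies 196 bases before it. The element of Psmb5 begins 47 bases before the start, and that of Psmb6 ends at the last base of its window.

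The alpha ring genes encode the gate of the barrel, and all 7 tested had fold changes below 0. Psma7 (ENSMUSG00000027566, chr2:180036374-180042433, minus strand) stood at 336, 331, 265, 299 and 360.2 CPM in WT_PBS, 361, 311, 363, 325 and 310.3 CPM in Het_PBS and 206, 217, 232, 229 and 240 CPM in Het_B12. Every Het_B12 library lay below all 10 PBS libraries. Psma7 fell by 0.57 ± 0.10 on the log2 scale (adjusted p = 0.000465), the smallest p of the family. Psma4 (ENSMUSG00000032301, chr9:54950790-54958030, plus strand) stood at 160.1, 165, 99.9, 156 and 156 CPM in WT_PBS, 156, 143, 129, 147 and 143 CPM in Het_PBS and 81.4, 78.1, 101, 81 and 108 CPM in Het_B12. Its Het_B12 libraries lay below all Het_PBS libraries, but WT_PBS 3, well under the other wild types, lay below 2 of them. Its log2 fold change was -0.67 ± 0.13 (adjusted p = 0.000865). Psma2 (ENSMUSG00000015671, chr13:14613240-14674236, plus strand) stood at 144, 168, 149, 95.1 and 126 CPM in WT_PBS, 145, 131, 156, 168 and 189.5 CPM in Het_PBS and 114, 128, 124, 110 and 110.2 CPM in Het_B12. The Het_B12 libraries were all below Het_PBS and within the range of WT_PBS, and the log2 fold change was -0.43 ± 0.13 (adjusted p = 0.0345). For Psma2 a gene on the same strand, AW209491, overlaps it with 12.3% as many reads, so its count is uncertain. Psma6 (ENSMUSG00000021024, chr12:55384222-55418454, plus strand) stood at 102, 115, 92.9, 88.4 and 92.3 CPM in WT_PBS, 88.4, 113, 124, 102 and 111 CPM in Het_PBS and 80.9, 60.5, 93.4, 79.8 and 85.1 CPM in Het_B12. Here the groups overlapped, since Het_B12 3 lay above Het_PBS 1, and the log2 fold change was -0.43 ± 0.13 (adjusted p = 0.034). The other alpha genes, Psma1 (-0.11 ± 0.16), Psma3 (-0.10 ± 0.13) and Psma5 (-0.18 ± 0.28), did not pass.

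In the beta ring only Psmb3, which encodes a subunit without cutting activity, passed. Psmb3 (ENSMUSG00000069744, chr11:97703399-97713500, plus strand) stood at 113, 94.8, 66, 79.2 and 101 CPM in WT_PBS, 108, 69.7, 81.5, 114 and 82.5 CPM in Het_PBS and 56.8, 55.5, 52.6, 60 and 59 CPM in Het_B12. The 5 Het_B12 libraries lay close together and below all 10 PBS libraries. Its log2 fold change of -0.68 ± 0.15 (adjusted p = 0.00246) was the lowest of the family. The cutting subunits did not pass: the chymotrypsin-like Psmb5 was at -0.13 ± 0.22, the caspase-like Psmb6 at -0.19 ± 0.11 and the trypsin-like Psmb7 at -0.17 ± 0.15, with adjusted p from 0.322 to 0.79. The structural genes Psmb1 (-0.28 ± 0.12) and Psmb4 (-0.26 ± 0.12) did not pass either. Psmb2, another subunit without cutting activity, had the highest value of the family, 0.43 ± 0.25 (adjusted p = 0.332). It stood at 14.8, 13.9, 8.77, 13.3 and 12.5 CPM in WT_PBS, 12.6, 11.6, 9.06, 12.4 and 26.9 CPM in Het_PBS and 20.5, 20.1, 19, 17.1 and 19.2 CPM in Het_B12. Het_B12 was above every PBS library but Het_PBS 5, the highest of the 15. Without the 2 smallest libraries, WT_PBS 3 and Het_PBS 5, Psmb2 was called higher in Het_B12, at 0.74 (adjusted p = 0.0461). That choice was made after seeing the data. In the 15 fits that left out 1 library, Psmb2 was called in 0 (lowest adjusted p = 0.0599).

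**Figure D2:**
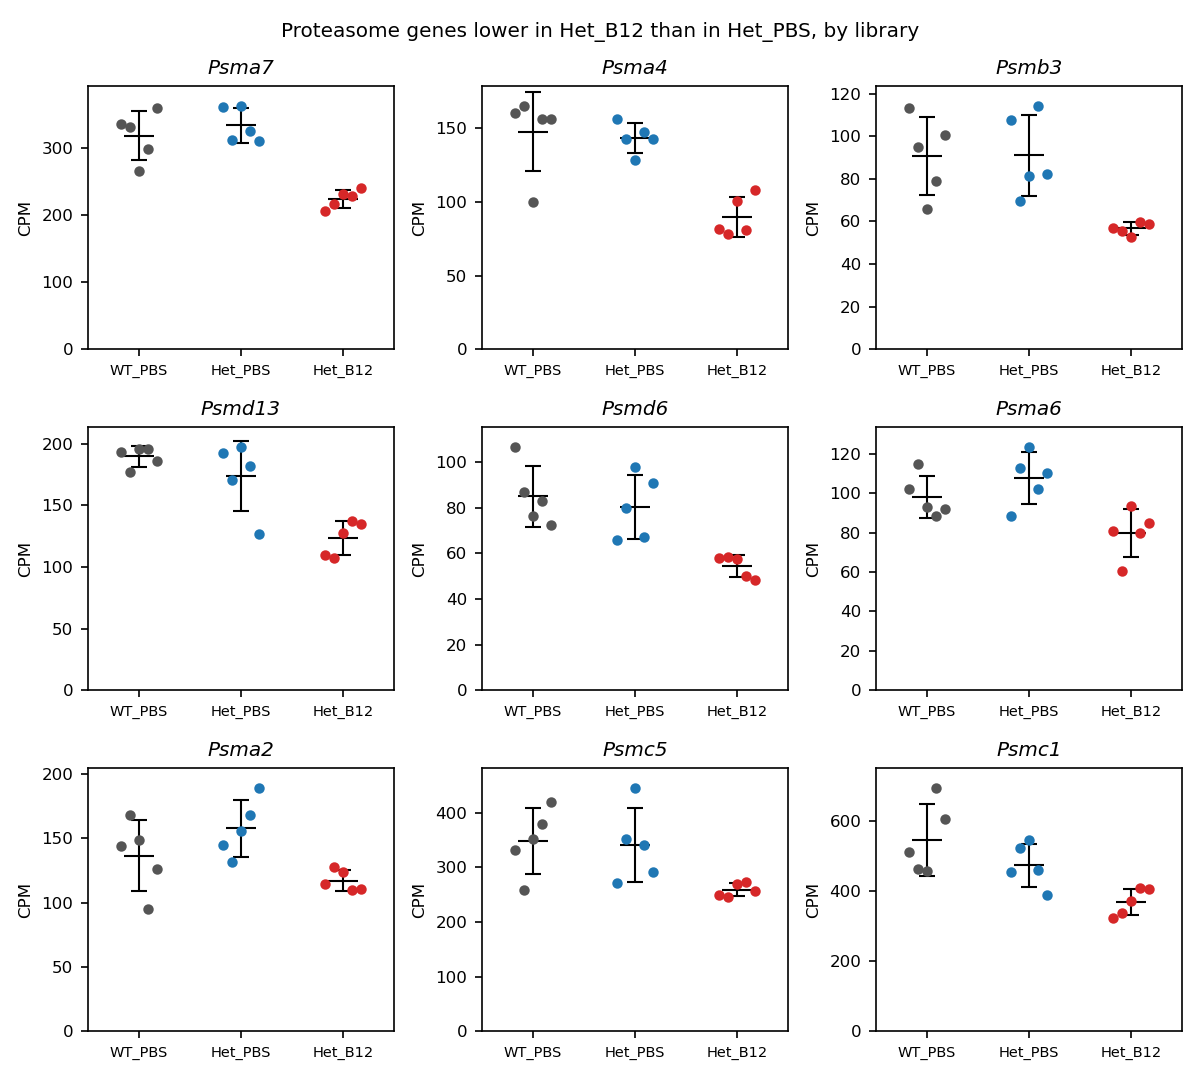
CPM (y axis, from 0) of the 9 proteasome genes that were lower in Het_B12 than in Het_PBS, by group (x axis); points are the 5 libraries of a group, left to right replicates 1 to 5, and bars the mean ± SD. For Psma7 the Het_B12 libraries lie between 206 and 240 CPM, below all PBS libraries, while for Psma6 the groups overlap.

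The ATPase ring of the 19S base unfolds substrates and threads them into the core, and its genes divided. Psmc1 (ENSMUSG00000021178, chr12:100110154-100123405, plus strand) stood at 512, 464, 458, 697 and 607 CPM in WT_PBS, 454, 522, 545, 462 and 389 CPM in Het_PBS and 324, 338, 371, 408 and 405 CPM in Het_B12. Only Het_PBS 5 lay within the Het_B12 range, and the log2 fold change of -0.36 ± 0.12 passed narrowly (adjusted p = 0.0496). Psmc5 (ENSMUSG00000020708, chr11:106256154-106263120, plus strand) stood at 333, 258, 352, 380.3 and 421 CPM in WT_PBS, 271, 353, 447, 341 and 292 CPM in Het_PBS and 249, 247, 269.6, 274 and 257 CPM in Het_B12. Its Het_B12 libraries lay below those of Het_PBS except for Het_PBS 1, and its log2 fold change was -0.40 ± 0.12 (adjusted p = 0.0399). Psmc6 stood at 89.9, 57.3, 42.7, 51.7 and 59.3 CPM in WT_PBS, 51.5, 52.2, 57.8, 56.2 and 80.7 CPM in Het_PBS and 45.9, 48.4, 44.5, 44.1 and 40.5 CPM in Het_B12. Its Het_B12 libraries were all below Het_PBS, yet the test was not passed (-0.41 ± 0.16, adjusted p = 0.125). Het_PBS 5 lay far above the other Het_PBS libraries, and WT_PBS 1 was the highest of all libraries. Psmc3 was at -0.25 ± 0.10 (adjusted p = 0.146), while Psmc2 (0.11 ± 0.12) and Psmc4 (0.21 ± 0.14) had values above 0 that did not pass.

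The lid carries the deubiquitinase Psmd14 on a frame of other subunits, of which Psmd13 and Psmd6 fell. Psmd13 (ENSMUSG00000025487, chr7:140881968-140898643, plus strand) stood at 193, 177, 196, 196 and 186 CPM in WT_PBS, 193, 170.4, 198, 182 and 127 CPM in Het_PBS and 110, 107, 128, 137 and 135 CPM in Het_B12. The Het_B12 libraries were below all WT_PBS libraries, and Het_PBS 5, low among the heterozygotes, lay within their range. Its log2 fold change was -0.50 ± 0.12 (adjusted p = 0.00629). Sirt3 overlaps Psmd13 on the opposite strand with 19.4% as many reads, and the sources used here do not state a strand setting. Psmd6 (ENSMUSG00000021737, chr14:14112174-14120984, minus strand) stood at 107, 86.8, 76.5, 83 and 72.3 CPM in WT_PBS, 66, 80, 97.9, 67.3 and 90.9 CPM in Het_PBS and 57.7, 58.4, 57.4, 50 and 48.5 CPM in Het_B12. All 5 Het_B12 libraries lay below all 10 PBS libraries, with a log2 fold change of -0.56 ± 0.14 (adjusted p = 0.00922). Psmd14 itself was at 0.08 ± 0.18 (adjusted p = 0.851). Of the other lid genes, Psmd7 (-0.25 ± 0.12) and Psmd12 (-0.17 ± 0.14) lay below 0, Psmd8 (-0.02 ± 0.11) near it, and Psmd3 (0.19 ± 0.12) and Psmd11 (0.10 ± 0.12) above it, none passing.

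The remaining genes did not pass. Among the scaffold and receptor genes of the base, Psmd2 was at -0.28 ± 0.12, Psmd4 at -0.15 ± 0.12 and the scaffold gene Psmd1 at 0.18 ± 0.11. Psmd10, which encodes the base chaperone gankyrin, stood at -0.55 ± 0.21 (adjusted p = 0.104), and its fellow chaperones Psmd5 and Psmd9 at -0.43 ± 0.22 and 0.07 ± 0.23. Psmg1, Psmg2, Psmg3 and Psmg4, chaperones of core assembly, spread from -0.68 to 0.29 at low levels. The caps of the interferon-induced activator, Psme1 (-0.08 ± 0.15) and Psme2 (-0.44 ± 0.29), the nuclear activators Psme3 (0.24 ± 0.15) and Psme4 (-0.00 ± 0.17) and the inhibitor Psmf1 (0.14 ± 0.18) lay on both sides of 0. Psme1 overlaps Emc9 on the opposite strand, which had 49.6% as many reads, and Psmb7 overlaps Nek6 on the opposite strand, which had 14.1%. Psmb10, the 1 immune subunit with enough reads, was at -0.29 ± 0.15 (adjusted p = 0.248).

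The calls were not equally firm. When each of the 15 libraries was left out in turn, Psma4, Psma7, Psmb3, Psmd6 and Psmd13 passed in all 15 fits. Psma2 was lost in 6 of them, Psma6 in 7, Psmc5 in 8 and Psmc1 in 10. The count of members called was 5 without Het_PBS 3, Het_PBS 4 or Het_B12 1. Without Het_PBS 5 and Het_B12 1 together, which share an animal number in the labels, 5 were called. Without the 2 smallest libraries 11 were called: Psma2 was lost, Psmc3 and Psmd2 joined the fallers, and Psmb2 was called higher. The median longest transcript of the 9 fallers was 1509 bases, beside 1970 among the 35 that did not pass and 3604 over all genes. Fold changes rose with transcript length over all genes (rho 0.26 by Spearman, taken across genes that are not independent replicates) and over the 44 members (0.34). The median over the shortest 20% of all genes was -0.15 and over the longest 20% it was 0.12. With an offset for transcript length in the fit, 5 members stayed called lower, Psma2, Psma4, Psma7, Psmb3 and Psmd13. The share of all genes called lower was not counted in that fit, nor in those with libraries left out.

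**Figure D3:**
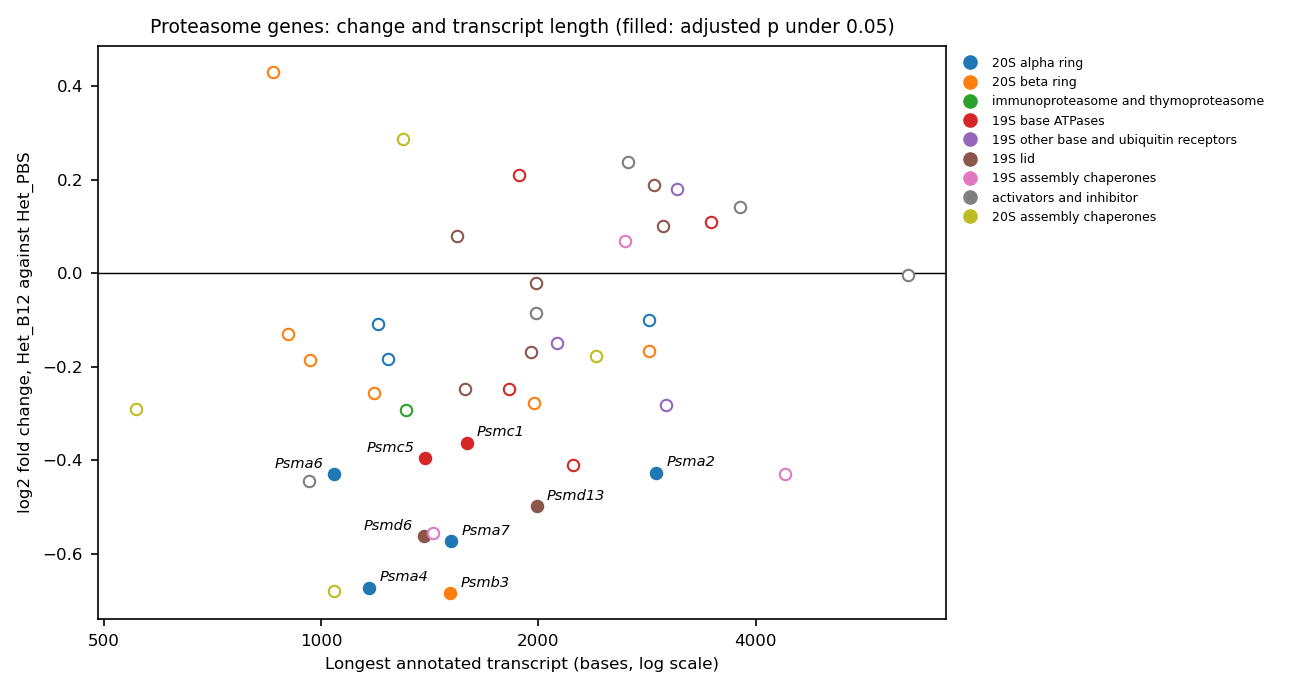
Log2 fold change in Het_B12 against Het_PBS (y axis) of the 44 tested members against the length of the longest annotated transcript (x axis, bases, log scale), coloured by gene group; filled points passed at an adjusted p under 0.05 and carry their names. The 9 named genes lie between 1042 and 2911 bases, and 8 of the 11 genes above 0 are longer than the members' median of 1851 bases.

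Treated heterozygotes were also set beside wild types given PBS, a comparison that shares the Het_B12 libraries with the one before. In Het_B12 against WT_PBS 10 of the 44 members fell and none rose, beside 4.11% of all genes called lower and 3.22% called higher. Groups did not overlap for 7 members that were lower, beside 2.94% of all genes. In the other direction they did not overlap for 1 member, Psmb2, beside 286 of all 11718 genes. The log2 fold change of Psmb2, 0.59 ± 0.25, did not pass (adjusted p = 0.167). The median log2 fold change of the members was -0.18, and -0.12 with the offset for transcript length. The 10 fallers had a median level of 259 CPM, beside 55.0 CPM among the members that did not pass. Of the fallers 7 were called in both comparisons, 77.8% of the 9 and 70% of the 10. The same share over all genes called lower was not counted. With the Het_B12 libraries in both comparisons, the overlap cannot be read as particular to the members. Psma4 was at -0.72 ± 0.13, Psmb3 at -0.68 ± 0.15, Psmd6 at -0.65 ± 0.14, Psmd13 at -0.62 ± 0.12, Psmc1 at -0.57 ± 0.12, Psma7 at -0.50 ± 0.10 and Psmc5 at -0.43 ± 0.12, with adjusted p from 0.00047 to 0.0251. Psma2 (-0.21 ± 0.13) and Psma6 (-0.29 ± 0.13) did not pass against wild types.

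The other 3 genes passed here and not against Het_PBS. Psmc3, an ATPase (ENSMUSG00000002102, chr2:91054009-91066369, plus strand), stood at 312, 298, 278, 332 and 300 CPM in WT_PBS, 289, 307, 269.7, 321 and 238 CPM in Het_PBS and 231, 216, 249.9, 239 and 265 CPM in Het_B12. All Het_B12 libraries were below all WT_PBS libraries, with a log2 fold change of -0.34 ± 0.10 (adjusted p = 0.0384). Psmd4, the ubiquitin receptor (ENSMUSG00000005625, chr3:95032694-95042614, minus strand), stood at 293, 277, 369, 416 and 349 CPM in WT_PBS, 272, 304, 346, 309.7 and 213 CPM in Het_PBS and 231, 240.1, 264, 282 and 287 CPM in Het_B12. WT_PBS 2 lay within the Het_B12 range, and the log2 fold change was -0.39 ± 0.12 (adjusted p = 0.0435). Psmd7, a lid partner of the deubiquitinase (ENSMUSG00000039067, chr8:107580381-107588464, minus strand), stood at 256, 257, 217, 322 and 294 CPM in WT_PBS, 262, 284, 249, 247 and 199 CPM in Het_PBS and 196, 187, 215, 205 and 244 CPM in Het_B12. WT_PBS 3 lay within the Het_B12 range here, and the log2 fold change was -0.37 ± 0.12 (adjusted p = 0.0457). Whether these genes differ between the comparisons was not tested. Psmd1 had the smallest p on the other side, with 170.4, 164, 146, 168 and 199 CPM in WT_PBS, 165, 227, 181, 169 and 209 CPM in Het_PBS and 212, 234, 218, 223 and 189 CPM in Het_B12. WT_PBS 5 lay among the Het_B12 libraries. The log2 fold change of Psmd1, 0.34 ± 0.11, did not pass in the main edgeR fit (adjusted p = 0.0546). It passed in DESeq2, in limma-voom and in edgeR with a mean count of at least 50. It also passed in 3 of the 15 edgeR fits that left out 1 library. Leaving out libraries in turn gave 6 to 11 called members, 6 without WT_PBS 4, Het_B12 1 or Het_B12 2, and the offset for transcript length gave 6. In the fits with 11, 10 members were lower and Psmd1 was higher. Psmc3 and Psmd4 each lost their call in 7 of the 15 fits that left out 1 library, Psmd7 in 9 and Psmc5 in 4.

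Summed by gene group, the largest shift in percent was in the alpha ring. Its 8 genes summed to 894, 939.9, 781, 789 and 859.9 CPM in WT_PBS, 932, 838, 906, 867 and 944 CPM in Het_PBS and 626, 643, 690.3, 632 and 675 CPM in Het_B12. Every Het_B12 library lay below all PBS libraries, and the mean was 27.2% under that of Het_PBS. The 7 beta genes summed to 802 ± 102, 825 ± 69.8 and 689.8 ± 41.6 CPM (SD, n = 5), with overlap between groups. The 6 ATPase genes summed to 1429 ± 157, 1334 ± 138 and 1107 ± 59.2 CPM, and the 8 lid genes to 964 ± 22.9, 932 ± 46.5 and 830.4 ± 19.4 CPM. The lid sums of Het_B12, at most 851 CPM, lay below all PBS libraries, and the lowest of those was Het_PBS 5 at 857. The caps and their inhibitor showed no such shift, at 174 ± 16, 175 ± 15.8 and 176 ± 11.7 CPM. In Het_B12 against Het_PBS the sums of the 19S assembly chaperones changed by -19.9% and those of the immune and thymus subunits by -18.2%. The core assembly chaperones changed by -8.54% and the 19S scaffold and receptor genes by -5.66%. The RNA sums of the core rings together changed by -22.0% and those of the 19S particle by -12.4% in Het_B12 against Het_PBS. The ratio of 19S to core sums was 1.89 ± 0.27 in WT_PBS, 1.72 ± 0.21 in Het_PBS and 1.93 ± 0.10 in Het_B12, ranges that overlap. These sums carry no test and follow the most abundant members.

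**Figure D4:**
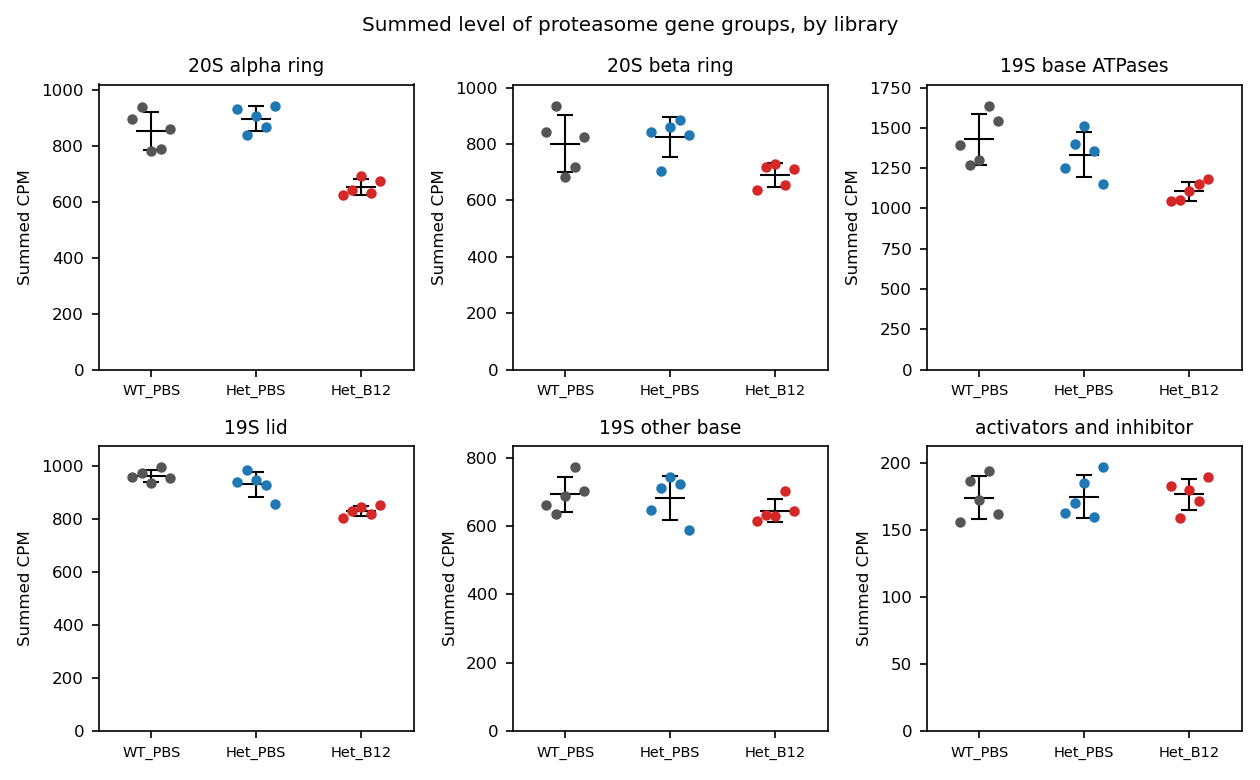
Summed CPM (y axis, from 0) of 6 groups of proteasome genes by group of mice (x axis); points are the 5 libraries of a group, left to right replicates 1 to 5, and bars the mean ± SD. The alpha ring sums of Het_B12 lie between 626 and 690 CPM, below the PBS libraries, while the sums of the activators and inhibitor cover the same range in all groups.

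Genes that work with the proteasome under other names were counted by list. Of 10 tested genes of associated proteins 1 fell in Het_B12 against Het_PBS, as did 1 of 7 regulators of proteasome transcription, beside 3.79% of all genes called lower. With so few genes a list, 1 call says little about the list. None of the 7 tested genes of antigen presentation and interferon response passed, and no gene of these 3 lists rose. Pomp, which encodes the maturation protein that helps assemble the core, stood at 601, 702, 624.6, 409.5 and 663 CPM in WT_PBS, 594, 697, 709, 721 and 686 CPM in Het_PBS and 532, 431, 469, 446 and 448 CPM in Het_B12. All Het_B12 libraries were below Het_PBS, and WT_PBS 4 was the lowest of all 15. Pomp fell by 0.55 ± 0.11 (adjusted p = 0.00163) and, against WT_PBS, had -0.37 ± 0.11 (adjusted p = 0.0397), a call lost in 7 of the 15 fits that leave out 1 library. Nfe2l2 encodes the stress factor NRF2, which acts at antioxidant response elements, and stood at 23.8, 24.3, 16.4, 23.4 and 25.1 CPM in WT_PBS, 29.5, 31.1, 24.2, 25.2 and 28.7 CPM in Het_PBS and 12.3, 6.09, 17, 19.1 and 15.7 CPM in Het_B12. Every Het_B12 library was below every Het_PBS library, with a log2 fold change of -0.98 ± 0.23 (adjusted p = 0.00541); against WT_PBS it was -0.69 ± 0.23 and did not pass (adjusted p = 0.0609). Nfe2l1, whose protein raises proteasome genes when the proteasome is inhibited, was at -0.11 ± 0.11 (adjusted p = 0.637), and B2m, the light chain of class I antigen presentation, at -0.39 ± 0.13 (adjusted p = 0.0624).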

How the data were processed

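The authors deposited whole-number read counts per gene for 15 mouse brain libraries, a QuantSeq 3′ assay per the labels' protocols. STAR, HTSeq, edgeR and build mm10 are named per the submitters' processing notes; no version, annotation or strand setting is stated there. The tissue is called whole brain in one label and brain hemisphere in others, and the labels name more than 1 way of isolating RNA, without saying which library had which. Groups and replicate numbers came from sample titles. Coordinates (1-based) and transcript lengths are from GENCODE M21 (GRCm38), in which all 50 members matched.

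Counts were analysed in R 4.3.3 with edgeR 4.0.16: filterByExpr kept 11718 genes, scaled by TMM factors, and a quasi-likelihood model with 1 mean per group was fitted to all 15 libraries (12 residual degrees of freedom). Calls were made at p under 0.05 after Benjamini-Hochberg adjustment over all genes. The test was tried on simulated counts. Replicate numbers do not pair the libraries: 1 of 15 same-number correlations exceeded 0.1. Alternatives were DESeq2 1.42.0 (size factors; Wald test), limma-voom (limma 3.58.1), other filters on low counts, 2 groups only, a replicate block, an offset for transcript length, libraries left out and, chosen after seeing the data, the 2 smallest libraries left out together. All members could be named; full values were given for those passing in any comparison. The members and gene lists were chosen with earlier results of these data known. Floors cover counting error only. A list of ubiquitin genes was tested and is not reported here.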

Additional observations from a re-analysis of the deposited data

Results flagged for a closer look

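In 9 of 132 sets of 5 libraries, 1 library stood far from the other 4 by Dixon's test; chance gives about 1 in 20. Psma1 was high in Het_B12 1, at 68.7 CPM (the others 48.6 to 53.2). Psma4 was low in WT_PBS 3, at 99.9 CPM (156 to 165). Psmb2 and Psmc6 were high in Het_PBS 5, at 26.9 CPM (9.06 to 12.6) and 80.7 CPM (51.5 to 57.8). Psmb7 was high in Het_PBS 1, at 144.6 CPM (114.7 to 116.9). Psmc2 was high in WT_PBS 2, at 113 CPM (88.3 to 94.4), and Psmd11 in WT_PBS 3, at 79.5 CPM (68.3 to 70.9). Psmd3 was low in Het_B12 2, at 101 CPM (126 to 133), and Psmd5 in Het_B12 5, at 16.4 CPM (20.0 to 21.1).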

How the results depend on the processing

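No called member changed direction under any alternative run. The share of all genes called was not counted in these runs, so their counts of members have no background beside them. The count of members called in Het_B12 against Het_PBS, 9, was 5 with the offset for transcript length and 5 without both libraries of the shared animal number; in Het_B12 against WT_PBS, 10, it was 6 with the offset. DESeq2 size factors, the DESeq2 test, limma-voom and no filter on low counts gave 9, 9, 9 and 9 in the first and 10, 11, 11 and 8 in the second. Each 11 was 10 lower members and Psmd1 higher. Leaving out each library in turn gave 5 to 9 and 6 to 11 called members, and 0 in Het_PBS against WT_PBS. Over these fits the median log2 fold change of the members ran from -0.24 to -0.17, from -0.19 to -0.12 and from 0.02 to 0.07, in the same order. With the offset it was -0.10 and -0.12 in the vitamin comparisons. With the replicate number as a block, 9, 8 and 0 members were called; Psmc3 and Psmd7 lost their call against WT_PBS. The replicate numbers do not pair the libraries. Wild types given vitamin B12 were not analysed, so whether the vitamin acts alike in both genotypes was not tested. Psmg1, Psmb2 and other low genes had standard errors too wide to show small changes, and the 3 immune and thymus subunits near the floor gave no comparison.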
